A study of Saccharomyces cerevisiae with 104 samples.

Results

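The 36 genes described here encode enzymes that make histidine, lysine, the aromatic amino acids and the branched-chain amino acids in the budding yeast Saccharomyces cerevisiae. They were taken by gene name from 4 RNA-seq tables, each of which listed 7108 genes, and all 36 names were found among the 5989 nuclear protein-coding genes. They fall into 7 HIS genes, 8 LYS genes, 10 TRP and ARO genes, and 11 ILV, LEU and BAT genes. The series concerns RNA polymerase II stalling after acute hydrogen peroxide stress and holds 104 samples, of which 100 were ChIP-exo samples not analysed here. The other 4 are RNA-seq libraries of total RNA, called libraries 1 to 4 in accession order, which only names them. The labels give 1 text for all samples, with growth at 25 °C, 0.3 mM H2O2 for 6 min and crosslinking in 1% formaldehyde, and they name no strain, genotype, condition or replicate for any RNA-seq library. No library could therefore be placed in a group, each is described on its own, and no value has a replicate error or a p-value. Values in series follow the order of libraries 1, 2, 3 and 4.

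Yeast makes these amino acids itself when the medium lacks them. Many of the enzymes share a regulator, the transcription factor Gcn4, whose translation increases when amino acids run short, a system known as general amino acid control. Leucine synthesis has a further regulator, Leu3, which responds to the leucine precursor α-isopropylmalate, and lysine synthesis has Lys14, which responds to a lysine pathway intermediate. Several branched-chain steps take place in mitochondria, and the tryptophan, tyrosine and phenylalanine pathways share the shikimate pathway up to chorismate.

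The abundance unit is TPM, a length-scaled share of the RNA measured, which sums to 1000000 in each library with ribosomal RNA counted. A lower TPM of a messenger and a larger amount of other RNA therefore cannot be told apart, nor can less RNA per cell and fewer cells. The part of TPM in nuclear protein-coding genes was 46.9, 12.2, 21.2 and 5.77%. The median nuclear protein-coding gene, called the median gene below, stood at 40.2, 7.5, 17.6 and 3.59 TPM, so TPM is set against it within each library. The relative level used below is log2 of (TPM + 0.1) over (median gene TPM + 0.1), where 0 is the median gene and 1 is 2-fold above it. Coverage, the mean read depth over a gene, had a median over the 36 genes of 30.7, 11.1, 17.8 and 5.55. Its lowest value above 0 was 1.49, for LYS5 in library 4, which amounts to 1.22 kilobases of aligned sequence. Library 4 is the shallowest over these genes and its values are the least precise.

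Most of these genes were expressed above the median gene, and 1 was listed at 0 throughout. Of the 36, 28, 32, 29 and 32 stood above the median gene in libraries 1 to 4, where 50% of nuclear protein-coding genes do so in each library by definition. The median over the 36 was 2.4, 2.97, 2.17 and 2.42 times the median gene. In every library 28 genes were above it, and 3 genes, HIS6, LYS1 and LEU2, were below it. HIS2, HIS3, LYS5, TRP1 and LEU1 were above it in some libraries only. Together the 36 genes held 0.944, 0.866, 0.872 and 0.774% of the TPM of nuclear protein-coding genes, while their summed TPM ran from 4426 in library 1 to 447 in library 4. ILV5, ILV2, ILV3, LYS20, ARO2 and LEU4 were among the 10 most abundant members in all 4 libraries. HIS2, HIS6, LYS1, LYS5, TRP1 and ARO7 were among the 10 least abundant members above 0 in all 4.

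**Figure D1:**
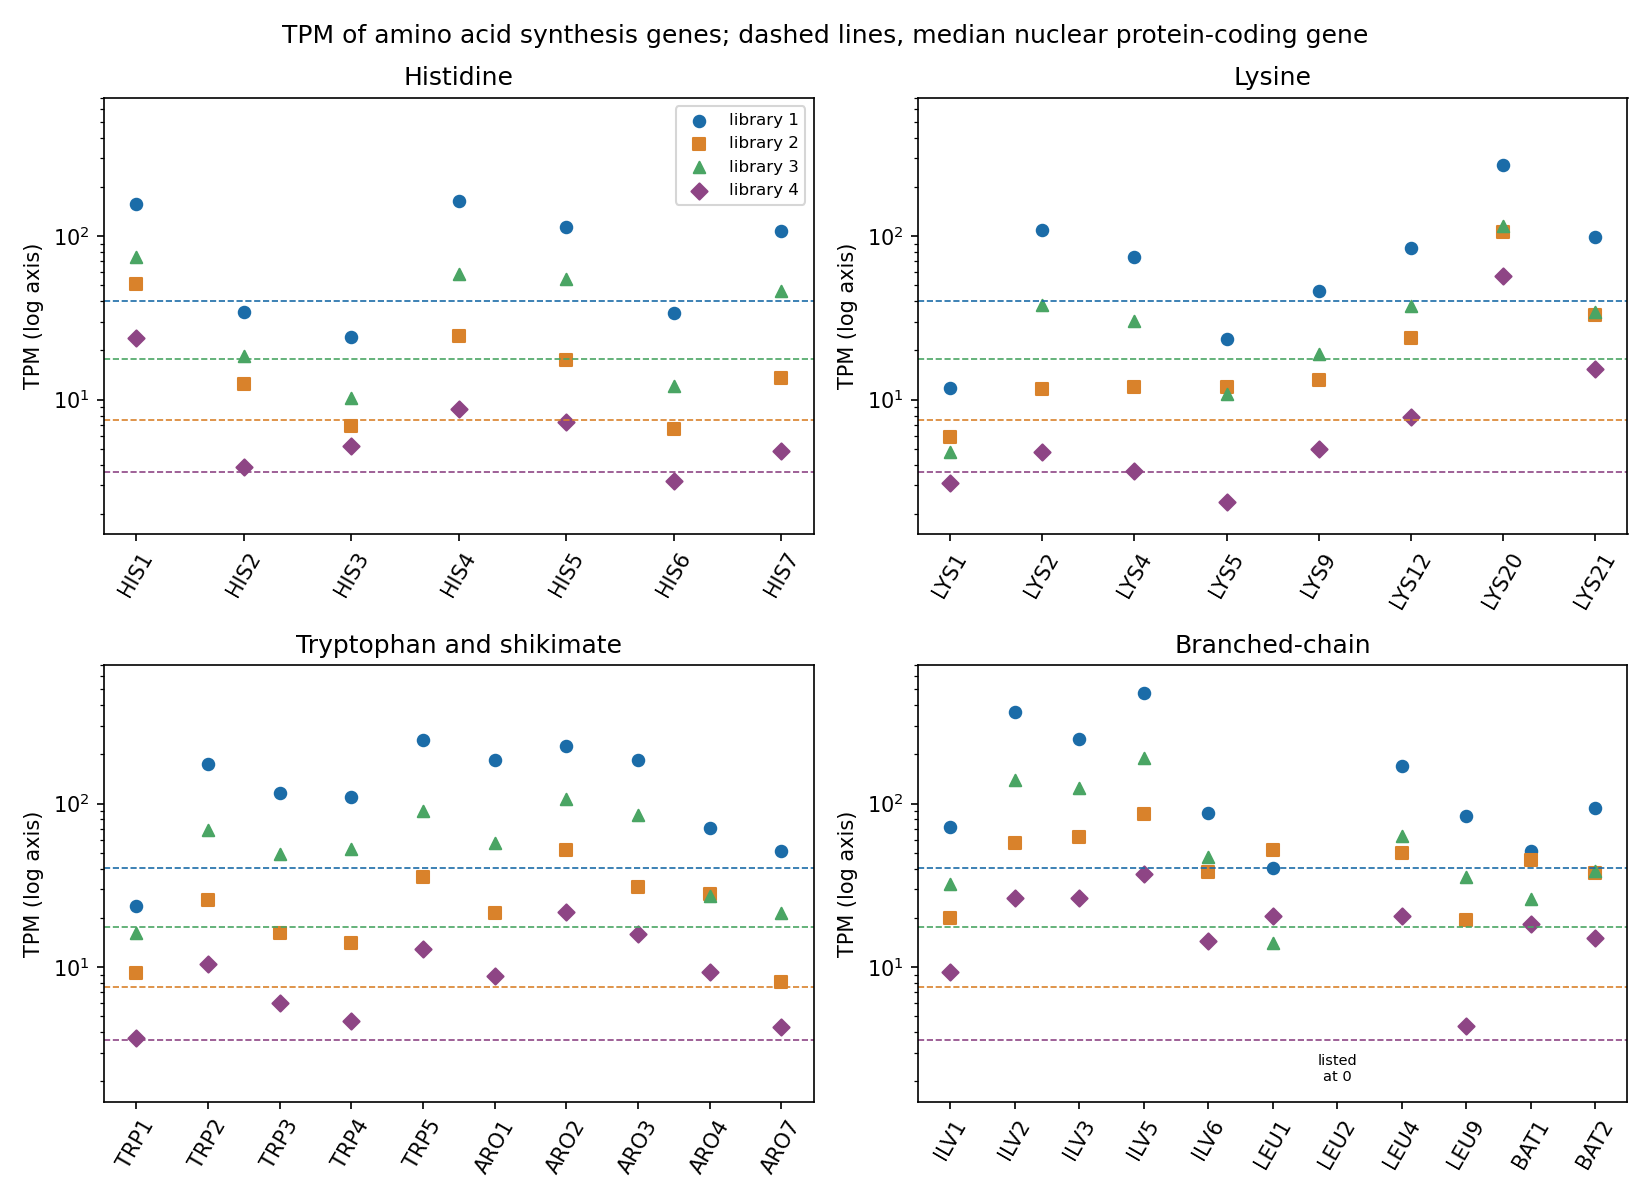
TPM (log axis) of each of the 36 genes in libraries 1 to 4, 1 panel per pathway, with 1 point per library and dashed lines at the median nuclear protein-coding gene of the library of that colour. LEU2 is listed at 0 in all 4 libraries and has no point, and LEU1 is the gene whose library 2 point lies above its library 1 point.

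Histidine is made from phosphoribosyl pyrophosphate and ATP. HIS1, ATP phosphoribosyltransferase, which starts the pathway, stood at 156, 50.7, 75.1 and 23.9 TPM, or 3.89, 6.76, 4.26 and 6.64 times the median gene. Among the HIS genes it was the highest in libraries 2, 3 and 4. HIS4, a multifunctional enzyme that catalyses early and last steps, stood at 164, 24.5, 58.5 and 8.82 TPM and was just above HIS1 in library 1. HIS7, which makes imidazole glycerol phosphate, had 107, 13.6, 46.1 and 4.84 TPM. HIS5, histidinol-phosphate aminotransferase, had 113, 17.4, 54.7 and 7.27 TPM. Both exceeded the median gene in each library. The isomerase HIS6 had 33.7, 6.63, 12.1 and 3.19 TPM and was below the median gene in each library. HIS2, histidinol phosphatase, had 34.3, 12.4, 18.6 and 3.88 TPM and lay close to the median gene except in library 2, at a relative level of 0.72. As a set the 7 HIS genes had median relative levels of 1.41, 0.85, 1.38 and 0.52, with 4, 5, 5 and 6 of 7 above the median gene.

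HIS3, imidazoleglycerol-phosphate dehydratase and a common selectable marker in yeast genetics (chromosome 15, 721946 to 722608, plus strand, sacCer3), was listed above 0 in all 4 libraries. It stood at 24.3, 6.91, 10.2 and 5.2 TPM, or 0.605, 0.922, 0.577 and 1.45 times the median gene, so it was below that gene in libraries 1 to 3 and above it in library 4. Its neighbour MRM1, which ends 237 bases before it on the other strand, stood at 91.4, 8.23, 47 and 5.42 TPM. DED1, a translation helicase gene that begins 302 bases after it, stood at 760.5, 122, 332 and 61.5 TPM. The reading frame YOR203W overlaps HIS3, and since the strandedness of the libraries is not given in the sources used here, reads of the overlap cannot be assigned with certainty. The same holds for HIS6, TRP1, TRP2, TRP4, LEU4 and LEU9, each of which another listed gene overlaps.

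Lysine is made from 2-oxoglutarate through α-aminoadipate. LYS20 and LYS21 encode homocitrate synthases, the first step. LYS20 (chromosome 4, 133437 to 134723, plus strand) stood at 274, 107, 115 and 57.4 TPM, or 6.81, 14.2, 6.53 and 16 times the median gene, and was the most abundant of the 36 genes in libraries 2 and 4. LYS21 had 99.1, 32.8, 34.5 and 15.3 TPM, and the ratio of LYS20 to LYS21 was 2.76, 3.25, 3.33 and 3.75. LYS20 was thus the higher of the pair in every library. These genes are close paralogs, so reads they share make both values uncertain.

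The middle of the lysine pathway was expressed near or moderately above the median gene. The homoaconitase LYS4 had 74.3, 11.9, 30.3 and 3.69 TPM, and the homoisocitrate dehydrogenase LYS12 had 84.5, 23.7, 37.6 and 7.85 TPM. LYS2, α-aminoadipate reductase, had 109, 11.6, 37.7 and 4.79 TPM, or 2.72, 1.55, 2.14 and 1.33 times the median gene. LYS5, the enzyme that attaches the cofactor Lys2 needs, had 23.5, 11.9, 10.9 and 2.37 TPM and was above the median gene in library 2 only. For the saccharopine dehydrogenases of the last steps, LYS9 had 46.2, 13.2, 19 and 4.99 TPM and LYS1 had 11.8, 5.95, 4.76 and 3.08 TPM. LYS1 (chromosome 9, 419615 to 420736, minus strand), which releases lysine, was the least abundant member above 0 in libraries 1, 2 and 3, and LYS5 was the least abundant in library 4. In relative level LYS1 stood at -1.76, -0.33, -1.87 and -0.21, farther below the median gene in libraries 1 and 3 than in libraries 2 and 4. The 8 LYS genes had median relative levels of 0.98, 0.74, 0.87 and 0.43, with 6, 7, 6 and 6 of 8 above the median gene.

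The shikimate pathway begins with ARO3 and ARO4, DAHP synthases that are inhibited by phenylalanine and by tyrosine, respectively. ARO3 stood at 186, 31, 85.3 and 16 TPM and ARO4 at 70.6, 27.9, 27 and 9.36 TPM, and the ratio of ARO3 to ARO4 was 2.63, 1.11, 3.16 and 1.71. ARO3 was the higher of the pair in every library, by least in library 2. ARO3 kept nearly the same place, at relative levels of 2.21, 2.03, 2.27 and 2.12, whereas ARO4 stood at 0.81, 1.88, 0.61 and 1.36. ARO1, the multifunctional enzyme of the middle steps, had 185, 21.4, 57 and 8.86 TPM, and the chorismate synthase ARO2 had 226, 52.1, 107 and 21.8 TPM. ARO7, the chorismate mutase that leads to phenylalanine and tyrosine, had 51.1, 8.11, 21.4 and 4.31 TPM and was only slightly above the median gene.

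Tryptophan synthesis branches from chorismate. TRP2, the anthranilate synthase, had 175, 25.8, 69.1 and 10.5 TPM, and TRP3, its partner subunit and indole-glycerol-phosphate synthase, had 116, 16.1, 49.1 and 6.07 TPM. The phosphoribosyltransferase TRP4 had 109, 14, 52.9 and 4.66 TPM, and the tryptophan synthase TRP5 had 244, 35.7, 89.9 and 12.9 TPM. TRP5 was the most abundant TRP gene in each library. TRP1, the isomerase between TRP4 and TRP3 and another common marker locus (chromosome 4, 461842 to 462516, plus strand), was the least abundant, at 23.7, 9.14, 16.1 and 3.67 TPM, or 0.588, 1.22, 0.917 and 1.02 times the median gene. The 10 TRP and ARO genes had median relative levels of 1.82, 1.63, 1.64 and 1.32, and 9, 10, 9 and 10 of 10 were above the median gene, TRP1 being the exception in libraries 1 and 3.

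The enzymes shared by valine, isoleucine and leucine synthesis included the most abundant members. ILV5, acetohydroxyacid reductoisomerase, a mitochondrial enzyme (chromosome 12, 838066 to 839253, minus strand), stood at 475, 86.4, 189.7 and 36.9 TPM, or 11.8, 11.5, 10.8 and 10.3 times the median gene. It was the most abundant of the 36 genes in libraries 1 and 3 and next to LYS20 in libraries 2 and 4. The acetolactate synthase ILV2 had 361, 57.1, 139 and 26.5 TPM, and its regulatory subunit ILV6 had 88.1, 37.9, 47.1 and 14.4 TPM. The dihydroxyacid dehydratase ILV3 had 248, 62.1, 124 and 26.3 TPM. ILV1, the threonine deaminase that feeds isoleucine synthesis, had 71.8, 20, 32 and 9.34 TPM and was the lowest of the ILV genes in all 4 libraries. In relative level ILV2 stood at 3.16, 2.91, 2.97 and 2.85 and ILV5 at 3.56, 3.51, 3.42 and 3.32, so both kept nearly the same place in all 4 libraries. ILV6 stood at 1.13, 2.32, 1.41 and 1.98, higher in libraries 2 and 4 than in libraries 1 and 3.

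**Figure D2:**
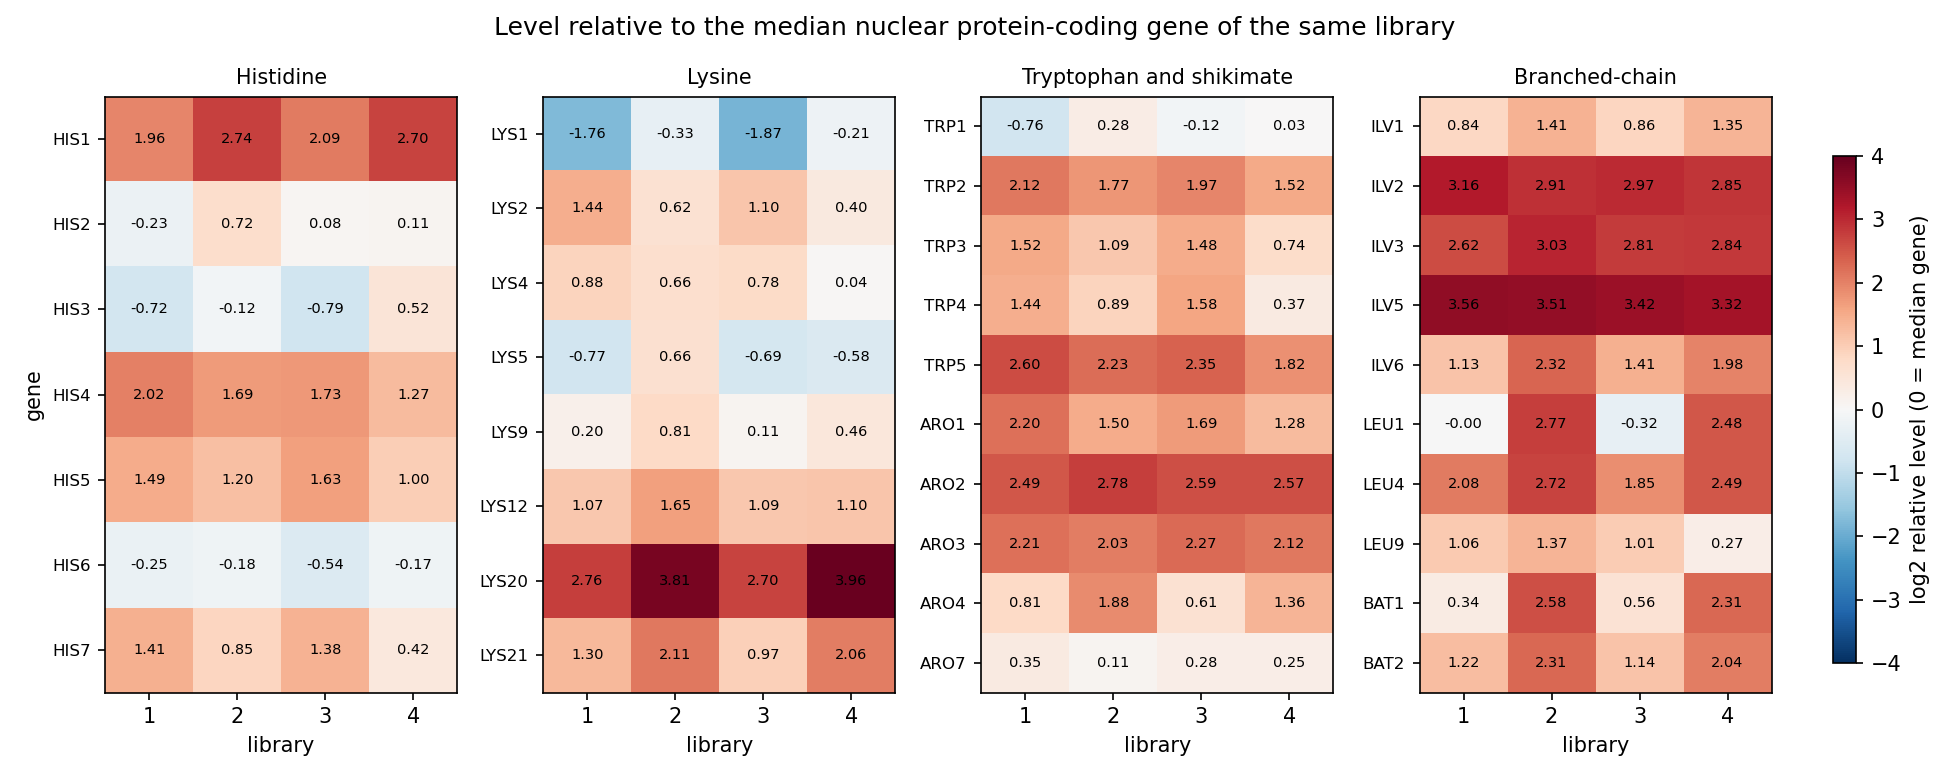
Relative level (log2, colour and printed value, 0 at the median nuclear protein-coding gene of the same library) of the 35 members above 0, with genes in rows and libraries 1 to 4 in columns, 1 panel per pathway; LEU2 is left out. ILV5, ILV2, ARO2 and ARO3 hold similar values across the row, and LEU1 and BAT1 are near 0 in libraries 1 and 3 and above 2 in libraries 2 and 4.

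Leucine synthesis leaves the valine pathway at α-ketoisovalerate, from which LEU4 and LEU9 make α-isopropylmalate. LEU4 stood at 171, 49.9, 63.6 and 20.7 TPM against 84, 19.5, 35.5 and 4.37 TPM for LEU9. The ratio of LEU4 to LEU9 was 2.03, 2.55, 1.79 and 4.73, with LEU4 higher in each library. They are paralogs, and the same caution applies as for LYS20 and LYS21.

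LEU1, the isopropylmalate isomerase (chromosome 7, 476313 to 478652, minus strand), varied most among the members above 0. It stood at 40.1, 51.8, 14.1 and 20.5 TPM, so its TPM was highest in library 2, although the median gene had over 5 times more TPM in library 1 than in library 2. In multiples of the median gene LEU1 was at 0.997, 6.9, 0.802 and 5.69, and its percentile among nuclear protein-coding genes was 49.9, 93.8, 41.5 and 92.9. LEU1 thus lay at or below the median gene in libraries 1 and 3 and far above it in libraries 2 and 4. BAT1, the mitochondrial branched-chain aminotransferase (chromosome 8, 517532 to 518713, plus strand), also stood highest against the median gene in libraries 2 and 4, with 51, 45.4, 26.1 and 18.2 TPM and 1.27, 6.06, 1.48 and 5.07 times the median gene. BAT2, its cytosolic counterpart, had 93.9, 37.6, 38.9 and 15.1 TPM and 2.34, 5.02, 2.21 and 4.19 times the median gene. The ratio of BAT1 to BAT2 was 0.543, 1.21, 0.671 and 1.21, so BAT2 was the more abundant in libraries 1 and 3 and BAT1 in libraries 2 and 4. BAT1 and BAT2 are paralogs too, and so are ARO3 and ARO4, so the caution on shared reads applies to both pairs. The 11 ILV, LEU and BAT genes, LEU2 included, had median relative levels of 1.13, 2.58, 1.14 and 2.31, with 9, 10, 9 and 10 of 11 above the median gene.

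LEU2, β-isopropylmalate dehydrogenase and a widely used selectable marker (chromosome 3, 91324 to 92418, plus strand), was the sole member listed at 0 in all 4 libraries, in TPM, FPKM and coverage alike. Of the 5989 nuclear protein-coding genes, 34 were listed at 0 throughout, or 0.568%. The nearest protein-coding gene on its right, NFS1, a cysteine desulfurase gene that ends at base 94270, lies 358 bases away and stood at 127, 17.6, 57.3 and 10.7 TPM. On its left the protein-coding gene that precedes it in order of start position, YCL020W, ends 4905 bases away and was listed at 1.42, 1.1, 0 and 0.85 TPM. This rule does not pick a gene that starts no later than YCL020W but ends closer to LEU2, so YCL020W may not be the nearest. Among 4 other marker loci, URA3 of uracil synthesis and MET17 of sulfur assimilation were also listed at 0 in all libraries, while ADE2 of purine synthesis had 121, 19.8, 51 and 8.24 TPM and the arginine permease CAN1 had 105, 13, 35.9 and 6.47 TPM. LYS2, TRP1 and HIS3, members that also serve as marker loci, were above 0, with the values given above. A listed 0 may also arise where the abundance estimate failed. HAC1, whose messenger yeast cells make constantly, was also listed at 0 in all 4 libraries (a gene picked after its values were seen), so LEU2 is described as listed at 0 and no more.

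How the members differed between libraries was examined for each of the 6 library pairs. For every gene with at least 1 TPM in either library, the log2(TPM + 0.1) difference was taken and the median difference of nuclear protein-coding genes was subtracted. A gene counted as apart where this relative difference exceeded 2-fold. With 1 library a side there is no test, and pairs that share a library are not separate observations. The 35 members above 0 passed the minimum in every pair, and LEU2 passed in none.

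In the pairs of libraries 1 and 2 and of libraries 3 and 4, LYS1, LYS20, LEU1 and BAT1 were over 2-fold lower in the library named first. The share of nuclear protein-coding genes lower in both pairs is not given here, so no more is read from this recurrence. Over the 35 members, Spearman's rho of relative level was 0.985 between libraries 1 and 3 and 0.956 between libraries 2 and 4. Against library 2, library 1 held 9 members over 2-fold lower and 0 over 2-fold higher, that is 25.7% lower where 18.9% of nuclear protein-coding genes were lower and 10.4% higher. The 9 were LYS1, LYS5, LYS20, TRP1, ARO4, ILV6, LEU1, BAT1 and BAT2, while each of the 7 HIS genes stayed within 2-fold. Against library 4, library 3 held 6 members lower, namely HIS3, LYS1, LYS20, LYS21, LEU1 and BAT1, and 2 higher, HIS7 and TRP4. The shares over nuclear protein-coding genes were 14% lower and 8.25% higher, against 17.1% and 5.71% of the members. In library 1 against library 2, 0% of members were higher, against 10.4% of genes. The other member shares lie nearer the shares over all genes, and no more is read from the counts than which genes they hold. In library 1 against library 2, LYS20 and TRP1 lay on the threshold and were no longer past it by coverage or with no minimum, and with a pseudocount of 1 the number lower was 4, without ARO4, ILV6 and BAT2 as well. In library 3 against library 4, HIS7 lay on the threshold at 1.00 and was not past it by FPKM, with a pseudocount of 0.01 or with a minimum of 10 TPM. LYS1, at 4.76 and 3.08 TPM in these libraries, was not counted with a minimum of 10 TPM. LYS20 and LYS21 were not past the threshold with a pseudocount of 1.

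**Figure D3:**
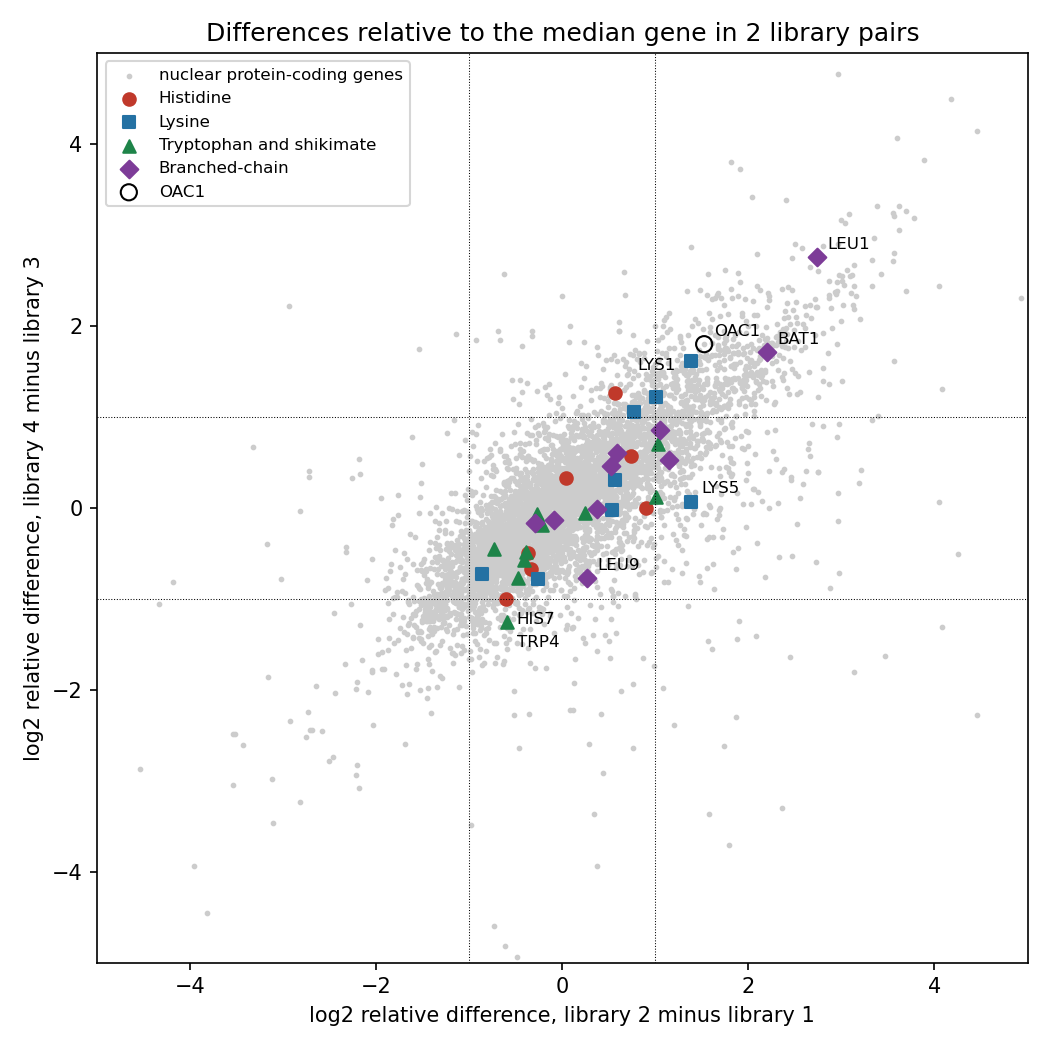
Relative difference (log2) of library 2 minus library 1 on the x axis and of library 4 minus library 3 on the y axis, with nuclear protein-coding genes in grey, the 35 members above 0 coloured by pathway, an open circle for OAC1 and dotted lines at 2-fold; 28 genes lie outside the axes. LYS1, LYS20, LEU1 and BAT1 lie past both lines at the upper right, with LEU1 the farthest out among the members. The share of nuclear protein-coding genes past both lines is not given here.

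The other pairs gave the following counts. Library 1 against library 4 had 3 members higher (HIS7, LYS2 and TRP4) and 5 lower (HIS3, LYS1, LYS20, LEU1 and BAT1), with 11.9% and 17.9% of nuclear protein-coding genes. With a pseudocount of 1, 7 members in place of 3 were higher. Library 2 against library 3 had 8 members higher (LYS1, LYS5, LYS20, LYS21, ARO4, LEU1, BAT1 and BAT2) and 0 lower, with 16.9% and 7.91% of genes. Library 2 against library 4 had 2 members higher, LYS5 and LEU9, and 0 lower, with 5.22% and 2.82% of genes. No member was over 2-fold apart between libraries 1 and 3, where 1.16% of genes were higher and 3.38% lower. Over all 4 libraries the relative level of 14 of 35 members spanned more than 2-fold, or 40%, against 44% of nuclear protein-coding genes. The members' median range was 0.87 against 0.90, close to that of other genes. Without library 2 the number over 2-fold was 8 of 35, against 33.7% of nuclear protein-coding genes.

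**Figure D4:**
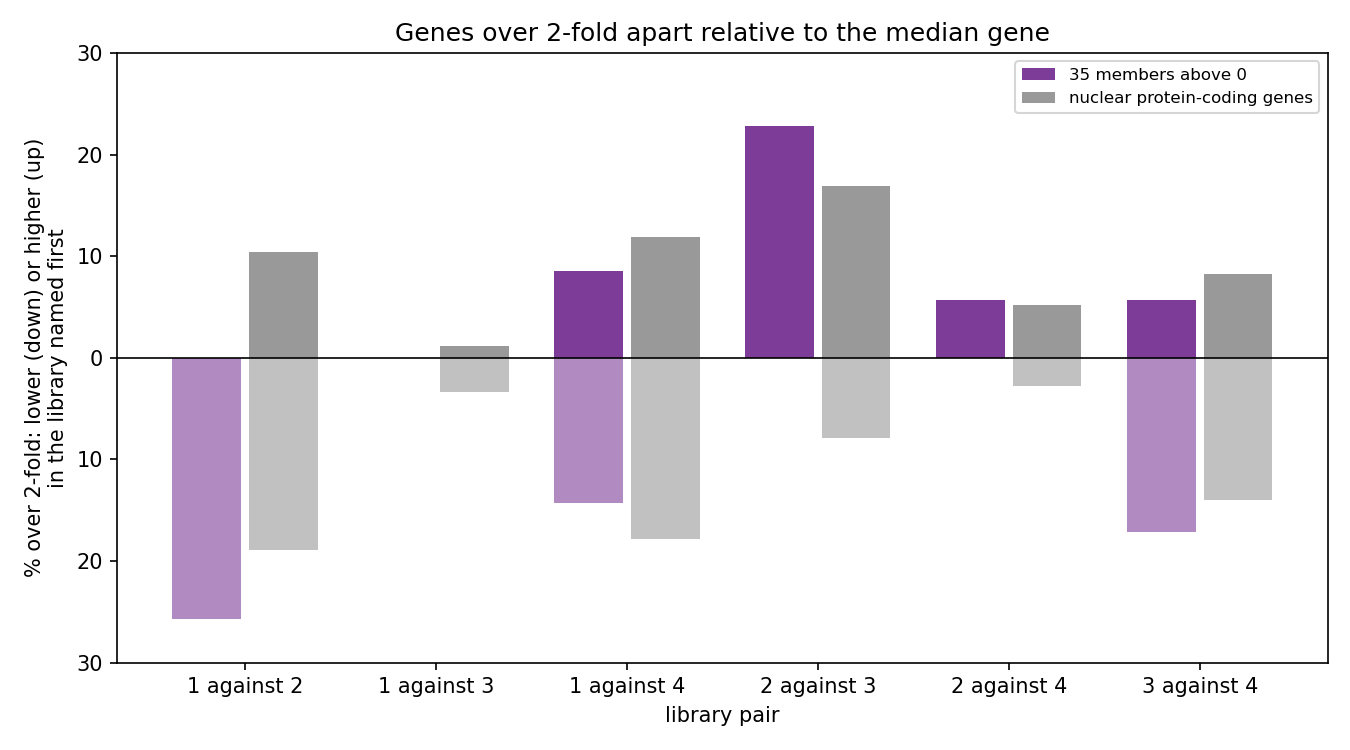
Share (%) of the 35 members above 0 (purple) and of nuclear protein-coding genes (grey) that were over 2-fold higher (bars upward) or lower (bars downward) in the library named first, relative to the median gene, for the 6 library pairs. The members' bars reach 25.7% lower for library 1 against library 2 and are absent for library 1 against library 3.

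Of the 35 members LEU1 had the widest range. LEU1 was 6.65-fold lower in library 1 than in library 2 and 6.74-fold lower in library 3 than in library 4, relative to the median gene. A relative difference at least that low was held by 2.49% and 0.704% of nuclear protein-coding genes. BAT1 was 4.59-fold and 3.27-fold lower in the same comparisons, and 4.57% and 4.51% of genes were at least as low. LYS1 differed by -1.38 and -1.61 log2 units and LYS20 by -1.01 and -1.22. At least as low were 12.3% and 5.44% of genes for LYS1, and 18.8% and 10.3% for LYS20. In the opposite direction, TRP4 differed by 0.60 and 1.26 and HIS7 by 0.61 and 1.00. Members of narrow range were ARO7, ARO3, ILV5, ARO2 and ILV2, whose relative levels spanned 0.23 to 0.32 log2 units over the 4 libraries.

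Gene span moved with these differences. Across nuclear protein-coding genes, which are not independent replicates and share libraries, Spearman's rho between span and the relative difference was 0.44 for library 1 minus library 2 and 0.33 for library 3 minus library 4. Over the 35 members it was 0.44 and 0.37. In the other pairs rho over genes and over members was 0.59 and 0.54 for library 1 minus 3, 0.50 and 0.45 for 1 minus 4, -0.23 and -0.29 for 2 minus 3, and 0.14 and 0.21 for 2 minus 4. It was thus highest in the pair where no member was over 2-fold apart. With genes classed as short, middle or long, long genes of 1617 bases or more had a median relative difference of 0.48 for library 1 minus library 2, against -0.57 for short genes of 880 bases or less. LEU1, at 2340 bases, is a long gene, and BAT1, at 1182 bases, is in the middle class, whose median was 0.01. TRP1, LYS5, HIS3, HIS6 and ARO7 are short genes by this measure, and HIS6 and ARO7 were within 2-fold in every pair. The part of span in any member's difference was not tested. The median span was 1185 bases for the 36 genes and 1203 for nuclear protein-coding genes.

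Other genes of these pathways were listed by role. Of 7 further enzymes and carriers, library 1 held 2 over 2-fold lower than library 2 and 0 higher. Library 3 held the same number lower than library 4. In both pairs these were OAC1 and PHA2. Over nuclear protein-coding genes 18.9% and 14% were lower in the 2 pairs, and 10.4% and 8.25% were higher. OAC1, a mitochondrial carrier that exports α-isopropylmalate (chromosome 11, 217344 to 218318, plus strand), stood at 39, 21.7, 16.6 and 12.3 TPM, or 0.97, 2.9, 0.941 and 3.43 times the median gene. Its relative difference was -1.52 for library 1 minus library 2 and -1.80 for library 3 minus library 4. It was thus near the median gene in libraries 1 and 3 and well above it in libraries 2 and 4, as were LEU1 and BAT1. PHA2, the prephenate dehydratase of phenylalanine synthesis, had 15.6, 7.03, 7.96 and 4.08 TPM. TYR1, of tyrosine synthesis, had 89.8, 9.68, 35.5 and 4.78 TPM, and the aromatic aminotransferase ARO8 had 216, 36.1, 79 and 14.6 TPM. The aromatic catabolism genes ARO9 and ARO10 were below the median gene in all 4 libraries, with 15.9, 5.13, 5.61 and 1.17 TPM and 25.6, 2.43, 9.88 and 1.03 TPM.

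Regulator messengers were mostly close to the median gene. Of 10 regulators, 8, 5, 6 and 6 stood above it. GCN4 had 137, 51.2, 53 and 17.6 TPM, or 3.41, 6.82, 3.01 and 4.88 times the median gene, the highest of the 10 in libraries 2 and 4. Gcn4 protein is controlled mainly in translation. GCN20, which acts with the Gcn2 kinase, had 205, 26.2, 76.8 and 11.8 TPM and was the highest in libraries 1 and 3. The kinase gene GCN2 itself had 56.6, 5.33, 16 and 2.5 TPM, and GCN1, its other partner, had 72.7, 10.5, 27.2 and 4.37 TPM. LEU3 had 39.7, 3.74, 12.4 and 1.07 TPM, at relative levels of -0.02, -0.99, -0.50 and -1.66, so it was lowest in libraries 2 and 4. GCN2, GCN1, GCN20, BAS1, LYS14 and ARO80 also had their lowest relative levels in libraries 2 and 4. The coverage of LEU3 in library 4 was 0.674, which makes that value uncertain. LYS14 had 61, 8.44, 25.5 and 3.74 TPM, and MKS1, which represses lysine genes, had 43.3, 9.74, 16.5 and 4.61 TPM. BAS1 and PHO2, which act on histidine genes, had 45.8, 4.57, 18.3 and 1.33 TPM and 48.2, 7.1, 18.8 and 4.47 TPM. ARO80, the activator of aromatic catabolism genes, had 39.3, 5.26, 15.2 and 2.13 TPM. In library 1 against library 2, GCN2 and LEU3 were over 2-fold higher and 0 regulators lower, where 10.4% and 18.9% of nuclear protein-coding genes were. Both lay on the threshold, at 1.02 and 1.01 log2 units. In library 3 against library 4, BAS1 and LEU3 were higher and 0 lower, with 8.25% and 14% of genes. GCN2, LEU3 and BAS1, of 4980, 2661 and 2436 bases, are long genes, whose class medians were 0.48 and 0.31 in these pairs. The part of span in their differences was not tested.

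Permeases that bring these amino acids in were mostly well above the median gene, 9 of 10 in each library, with GAP1 the exception at 17.6, 4.4, 5.71 and 1.59 TPM. BAP3, a branched-chain permease, stood at 643, 40.4, 300 and 22 TPM, or 16, 5.38, 17 and 6.11 times the median gene, and BAP2, another, at 425, 49.9, 164 and 24.9 TPM. BAP3 was 3.09-fold higher in library 1 than in library 2 and 2.92-fold higher in library 3 than in library 4, relative to the median gene, so its direction was opposite to that of LEU1 and BAT1. AGP1, a broad-range permease, went the other way, at -1.07 and -1.07 log2 units in the same pairs, from 76.3, 31, 32.8 and 14.7 TPM. The histidine permease HIP1 had 94.2, 17.8, 38.3 and 10.3 TPM and kept within 0.37 log2 units of relative level over the libraries. The lysine permease LYP1 had 167, 21.1, 58.7 and 6.93 TPM. The tryptophan and tyrosine permeases TAT1 and TAT2 had 239, 28.3, 96.5 and 11.6 TPM and 175, 15.9, 81.6 and 9.09 TPM, and the glutamine permease GNP1 had 145, 17.4, 58.2 and 6.67 TPM.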

How the data were processed

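Each RNA-seq library had 1 table of 7108 genes. Its coverage (a read-depth signal), its FPKM and its TPM are the authors' estimates, named so in the headers and used as deposited. TPM includes ribosomal RNA. BWA, Picard, SAMtools and sacCer3 are named in the submitters' processing notes for all assays together. The RNA-seq aligner and abundance estimator are not given in the sources used here, and no read counts were used. Aligned sequence, as coverage times span, came to 302, 218, 236 and 189.6 megabases in libraries 1 to 4 and 232, 72.3, 137 and 41.4 megabases in nuclear protein-coding genes alone.

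The protein-coding class came from a RefSeq gene table (R64) that matched 6011 identifiers. A pseudocount of 0.1, a minimum of 1 TPM in either library of a pair and a threshold of 2-fold were used (scipy 1.17.1, pandas 2.3.3, matplotlib 3.10.9, numpy 2.4.6, Python 3.11.15), and the calculation of pair differences was checked on simulated data. All 36 members are named. Other genes come from lists of enzymes, regulators, permeases and marker loci, or are neighbours or overlaps. The values of 1 gene on the enzyme list are not reported here. Members and lists were chosen with earlier results of these data known. Overlapping genes, 7 members among them, are uncertain. Promoter and protein sequences were not used here.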

Additional observations from a re-analysis of the deposited data

Results flagged for a closer look

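In 2 of the 35 members above 0, a single library lay far from the other 3, by the gap to the nearest value over the whole range above Dixon's 95% critical value for 4 values. That value assumes independent draws from 1 normal distribution, for which chance marks about 1 in 20 sets of values. The labels do not show the libraries to be such draws, so 2 of 35 is not set against that rate. The share of nuclear protein-coding genes marked by the same rule is not given here. LYS5 had a relative level of 0.66 in library 2, with -0.77, 0.66, -0.69 and -0.58 over the libraries and a ratio of 0.866. LYS12 had a relative level of 1.65 in library 2, with 1.07, 1.65, 1.09 and 1.10 and a ratio of 0.938. Neither difference was tested further.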

How the results depend on the processing

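Of 238 alternative values of 38 results, 223 stayed within the stated margin (1.5 times for a count, 1 SD over the libraries for a median) and 15 moved. The counts above the median gene, the list medians and the listing of LEU2 at 0 stayed within it wherever alternatives were run. These were FPKM, coverage, other pseudocounts and other reference genes. Within a library FPKM and coverage are proportional to TPM, so under them the counts above the median gene and the listing of LEU2 could not change. The list medians and the counts over 2-fold could change under them only through the pseudocount. Such values are among the 223 and the 15 and say nothing on robustness. The counts over 2-fold moved. At 1.5-fold, with the share of nuclear protein-coding genes in brackets, members higher and lower numbered 4 (24.5%) and 13 (29.2%) for library 1 against 2, 0 (3.64%) and 1 (9.71%) for 1 against 3, and 10 (25.5%) and 10 (28.3%) for 1 against 4. They numbered 14 (26.2%) and 1 (20.2%) for 2 against 3, 4 (11.7%) and 1 (9.73%) for 2 against 4, and 7 (21.1%) and 9 (24.5%) for 3 against 4. With a pseudocount of 1, 4 members were lower in library 1 than in library 2, and 7 were higher in library 1 than in library 4. With FPKM, a pseudocount of 0.01 or a minimum of 10 TPM, 1 member was higher in library 3 than in library 4 in place of 2. Leaving out each library in turn, chosen after seeing the data, gave 8 to 13 members with a range over 2-fold, lowest without library 2, where 33.7% of nuclear protein-coding genes passed. No paired analysis was possible because the labels put no library in a group. Depth limits library 4 most, where the median coverage of the members was 5.55.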

Other observations

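Among the 5101 nuclear protein-coding genes that carry a gene name in the tables, 18 were listed at 0 in all 4 libraries. Besides LEU2, URA3 and MET17 they include HAC1, the sporulation genes SPO19 and SAE3, the silent mating cassette gene HMLALPHA1 and the hexose transporter gene HXT14. They were read off after their values were seen. The cause of each 0 was not tested.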
